A study of Mus musculus with 16 samples.

Results

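The genes described here are 8 genes of lipid efflux and of liver X receptor (LXR) signalling, taken by their symbols from a gene expression table of sorted mouse spleen cells: Abca1, Abcg1, Pltp, Apoe, Nr1h3, Nr1h2, Mylip and Lpl. All 8 were found among the 24532 genes of the table, and all 8 passed the filter on low values that left 11335 genes for testing. RNA sequencing had been done on 16 libraries, 2 for each of 8 cell groups, from the spleens of C57BL/6 mice in postnatal week 12. No genotype other than the strain was given, and no transgene or deletion was named for these samples. Untreated control mice gave conventional dendritic cells (cDCs) of type 1 (control cDC1s) and of type 2 (control cDC2s). Mice injected once a day, 3 times in all, with GM-CSF, the colony-stimulating factor of granulocytes and macrophages, gave GM-CSF cDC1s and cDC2s, the populations P-I, P-III and P-IV, and GM-CSF DC-Xs. DC-Xs are the cells of the dendritic cell (DC) gate that stained neither for the cDC1 receptor XCR1 nor for the cDC2 antigen 33D1. P-I, P-III and P-IV are CD11b+ cells with high CD115, the receptor encoded by Csf1r: P-I are Ly6C+ classical monocytes, and P-III and P-IV are Ly6C- cells with MHC class II that lack or carry CD301b, the product of Mgl2. In the study most DC-Xs fell in the P-IV gate and most of the others in that of P-III, so that these groups hold overlapping cells, and P-II, a further population of the CD115-high gate, was not analysed here. Replicates came from separate mice (n = 2 per population), so each p-value rests on the spread within such pairs of libraries.

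LXRs are nuclear receptors that bind oxysterols, which are oxidized forms of cholesterol, and act on DNA as a pair with a retinoid X receptor (RXR). In macrophages and other cells with a high cholesterol load they raise the transcription of genes that move cholesterol out of the cell and onto lipoprotein particles. Abca1 and Abcg1 encode membrane transporters that export cholesterol, Apoe and Pltp encode secreted proteins that accept or remodel lipids on lipoproteins, Mylip encodes a ubiquitin ligase that acts on lipoprotein receptors, and Lpl encodes lipoprotein lipase, which releases fatty acids from triglycerides. Nr1h3 and Nr1h2 encode the receptors LXR alpha and LXR beta.

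The positions and upstream sequences of the members are given first, since the members are grouped here as targets of 1 family of DNA-binding receptors. On build GRCm38 (the same assembly as mm10), Abca1 lies at chr4:53030787-53159895 on the minus strand, Abcg1 at chr17:31057675-31117988 on the plus strand, Pltp at chr2:164839518-164857711 on the minus strand and Apoe at chr7:19696109-19699188 on the minus strand. Nr1h3 lies at chr2:91184061-91202834 and Nr1h2 at chr7:44549616-44553951, both on the minus strand, while Mylip lies at chr13:45389742-45412022 and Lpl at chr8:68880491-68907448, both on the plus strand. All 8 are protein-coding genes. RefSeq start sites on GRCm38.p6 were matched for 6 members (Abca1, Pltp, Apoe, Nr1h3, Nr1h2 and Mylip), with 9 start sites in all. The 250 bases before the start of Abca1 (chr4:53159896-53160145), Pltp (chr2:164857709-164857958) and Apoe (chr7:19699189-19699438) are shown, all on the minus strand and read 5′ to 3′, because these 3 of the members matched were called between DC-Xs and both GM-CSF cDC groups. Capitals mark matches, on either strand, to the GC box GGGCGG, the TATA box TATAAA or the core of the binding motif of PU.1, GAGGAA.
Abca1: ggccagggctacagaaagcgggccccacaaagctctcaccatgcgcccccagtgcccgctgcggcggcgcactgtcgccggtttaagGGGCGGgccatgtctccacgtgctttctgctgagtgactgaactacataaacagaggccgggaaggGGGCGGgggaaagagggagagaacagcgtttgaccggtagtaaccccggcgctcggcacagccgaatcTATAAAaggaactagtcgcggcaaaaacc
Pltp: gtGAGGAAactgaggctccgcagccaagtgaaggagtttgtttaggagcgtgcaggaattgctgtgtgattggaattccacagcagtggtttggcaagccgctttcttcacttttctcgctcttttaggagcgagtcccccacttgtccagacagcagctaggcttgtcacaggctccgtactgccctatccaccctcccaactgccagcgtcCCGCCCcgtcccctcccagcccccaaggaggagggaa
Apoe: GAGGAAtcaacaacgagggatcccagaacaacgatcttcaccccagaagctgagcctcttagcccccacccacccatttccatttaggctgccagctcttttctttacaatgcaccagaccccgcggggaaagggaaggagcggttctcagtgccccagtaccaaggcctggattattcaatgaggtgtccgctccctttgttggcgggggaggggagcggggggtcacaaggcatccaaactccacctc
The LXR response element in the form of a direct repeat, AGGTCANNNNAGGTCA, was searched on both strands and matched at 0 of the 9 start sites, beside 0.0152% of 32851 promoter windows of the same length in the table. Its single repeat unit, AGGTCA, also matched at 0 of the 9, beside 14.0% of all windows. Only these exact letters were searched. Their absence says nothing of elements with other letters in these windows, or of elements elsewhere in the genes. With 0.0152% of all windows matched, 0 of 9 for the full repeat cannot tell these genes from others. The GC box matched upstream of Abca1, Pltp and Mylip (32.7% of all windows), the TATA box upstream of Abca1, Mylip and a second Apoe start (12.4%), and the PU.1 core upstream of Pltp and 2 of 3 Apoe starts (23.3%). The 2 TATA box matches upstream of the second Apoe start overlap each other. A match is a description of the sequence and not of binding.

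The values are FPKM, which are sequenced fragments scaled by transcript length and by library size, so that levels can be set side by side between genes. A gene was called different between groups when its Benjamini-Hochberg adjusted p in a limma fit across all 11335 genes was under 0.05 and its change was at least 2-fold, that is 1 on the log2 scale. Fold changes on the log2 scale are of FPKM + 1, which makes the change of a gene at low FPKM look smaller than it is, and errors beside them are standard errors (SE). The spread was pooled over all 8 groups. The filter asked for at least 1 FPKM in 2 libraries. Abca1 reached this in 5 libraries, all of DC-Xs, P-IV or P-III. Lpl reached it in 8, all of DC-Xs or CD115-high cells, with its highest cDC library at 0.9996 FPKM. These members were thus tested only through groups where they were high. Their calls in DC-Xs and P-IV against GM-CSF cDCs were kept with no filter. Depth could be recovered for 11 libraries, at 24600000 to 47100000 fragments, and is unknown for the other 5. The cDC1 markers summed to 1831 to 2631 FPKM in cDC1 libraries and to at most 163 in cDC2 libraries, the cDC2 markers to 616 to 885 and at most 18.3, and Csf1r with Mgl2 and Clec10a to 469 to 1329 in DC-Xs and CD115-high cells against at most 75.4 in cDCs, so the sorted types carried their markers. In bulk libraries fewer cells of a type and less RNA per cell cannot be told apart.

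The plot of the members by library shows 3 kinds of pattern. Pltp, Lpl, Abca1 and Abcg1 had their highest levels in DC-Xs or CD115-high cells, Apoe had its highest level in cDCs, and the receptor genes Nr1h2 and Nr1h3 and the ligase gene Mylip were not called between DC-Xs or P-IV and the cDCs of treated mice.

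**Figure D1:**
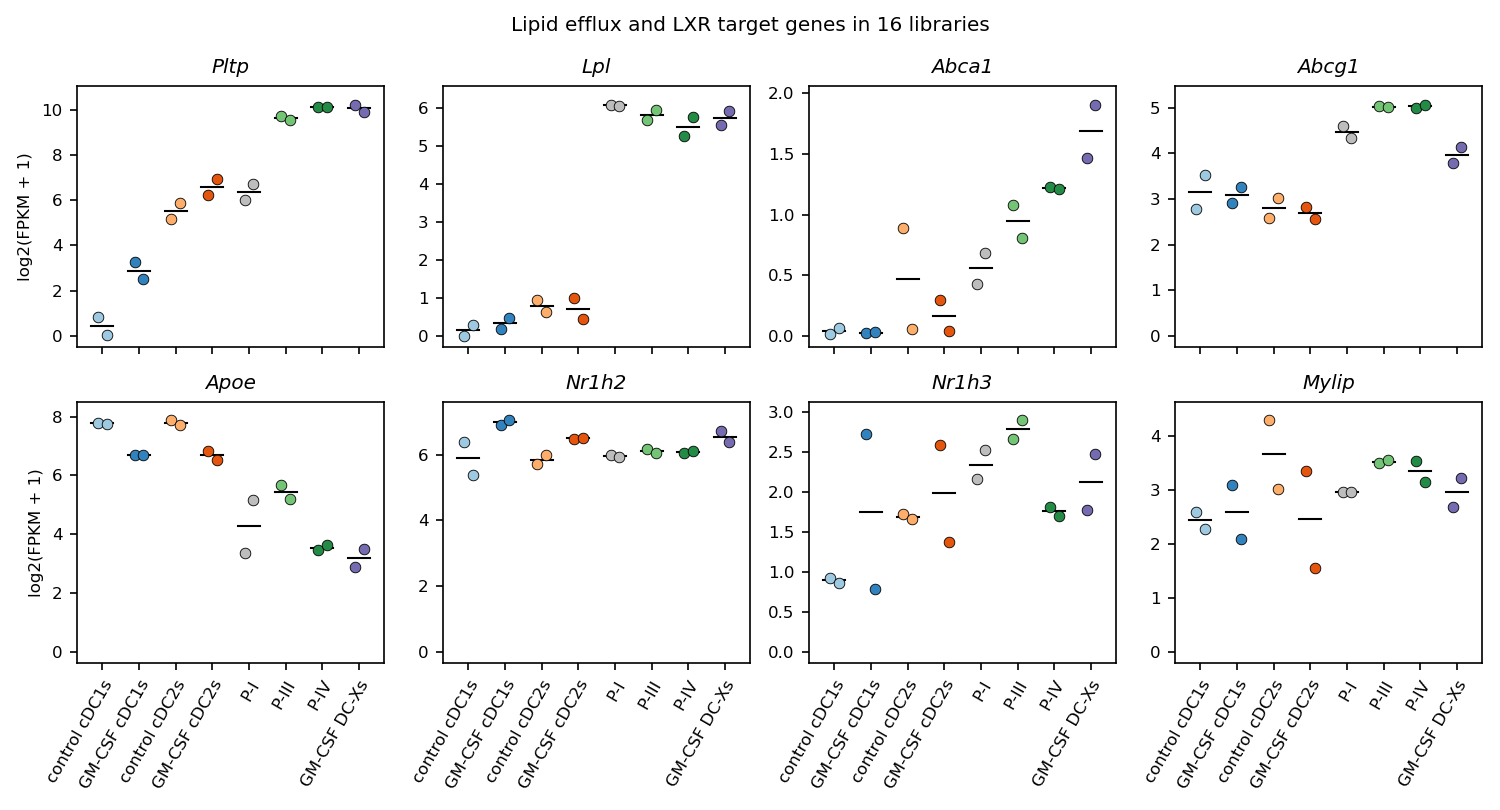
Level of each of the 8 genes, as log2(FPKM + 1), in the 16 libraries. Points are libraries (replicate 1 left, replicate 2 right), bars are the mean of a group on this scale (n = 2), and each panel has its own vertical axis. Pltp reaches its highest level of 1203 FPKM in DC-Xs, while Apoe is at 91.6 FPKM or more in all cDC libraries and at 49.4 or less in all others.

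Abca1, the transporter that loads cholesterol onto lipid-poor apolipoprotein A-I, was a gene of low level in all groups. The DC-X libraries held 1.76 and 2.75 FPKM, those of P-IV 1.34 and 1.32, those of P-III 1.12 and 0.751 and those of P-I 0.346 and 0.605. The cDC1 libraries lay at 0.0128 and 0.0437 without and 0.0150 and 0.0197 with GM-CSF. The cDC2 libraries lay at 0.853 and 0.0370 without and 0.228 and 0.0255 with GM-CSF. The groups thus fell in the order DC-Xs, P-IV, P-III and P-I, with P-I overlapping control cDC2s and the 4 cDC groups overlapping their neighbours in the order. Abca1 was higher in DC-Xs than in GM-CSF cDC1s by 1.66 on the log2 scale (SE 0.26, adjusted p = 0.000491, limma, n = 2) and than in GM-CSF cDC2s by 1.52 (adjusted p = 0.00117). P-IV was higher than the same cDCs by 1.20 (adjusted p = 0.00516) and 1.05 (adjusted p = 0.0109). The second of these calls was lost without GM-CSF cDC2s replicate 2 (adjusted p = 0.0734) and without P-IV replicate 1 or 2 (0.0693 and 0.0639). The 2.80-fold difference of means between P-IV and P-I did not pass (adjusted p = 0.167). About 8 fragments lay behind the value of GM-CSF cDC1s replicate 2, against about 443 and 1329 in the DC-X libraries, so that its cDC1 values rest on few fragments where the depth is known.

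Abcg1, the transporter that exports cholesterol to high-density lipoprotein, was present in every library. The P-III libraries held 31.6 and 31.4 FPKM, those of P-IV 30.7 and 32.6, those of P-I 23.3 and 19.2 and those of DC-Xs 12.8 and 16.5. The 8 cDC libraries lay between 4.91 and 10.5 FPKM, with a median of 6.28, and the 4 cDC groups overlapped their neighbours in the order. All libraries of DC-Xs and CD115-high cells were above all cDC libraries. P-IV was higher than GM-CSF cDC1s by 1.94 on the log2 scale (SE 0.27, adjusted p = 0.000169) and than GM-CSF cDC2s by 2.34 (adjusted p = 4.36e-05). DC-Xs were higher than GM-CSF cDC2s by 1.27 (adjusted p = 0.00446), while their difference from GM-CSF cDC1s, 0.87, stayed under the 2-fold rule (adjusted p = 0.0317). Abcg1 passed the rule in DC-Xs against GM-CSF cDC1s without GM-CSF cDC1s replicate 2 (1.05) and without DC-Xs replicate 1 (1.04).

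Abcg1 was also compared between DC-Xs and CD115-high cells. DC-Xs were lower than P-III by -1.06 (adjusted p = 0.0374) and differed from P-IV by -1.07 (adjusted p = 0.0575), which did not pass. The call against P-III was lost with any 1 of the 4 libraries left out, with an adjusted p of 0.0511 to 0.274. It was also lost with a pseudocount of 0.1 (adjusted p = 0.0533), with no filter (0.0588) and with quantile normalization (0.0858). The same held with median-of-ratios scaling (0.0914) and in a fit to these groups alone (0.0683). The difference from P-IV passed with libraries weighted by their spread (adjusted p = 0.00471) and with a filter at 5 FPKM (adjusted p = 0.0457).

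Pltp, the phospholipid transfer protein that remodels high-density lipoprotein, spanned the widest range of the members. The DC-X libraries held 1203 and 958 FPKM, those of P-IV 1107 and 1099, those of P-III 847 and 748 and those of P-I 63.1 and 103. In cDC2s it was at 34.6 and 58.6 without and 73.6 and 121 with GM-CSF, and in cDC1s at 0.758 and 0.0381 without and 8.56 and 4.68 with GM-CSF. P-IV overlapped DC-Xs and P-I overlapped GM-CSF cDC2s, and the other neighbours in the order did not overlap.

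Among CD115-high cells, Pltp was 9.57-fold higher in P-III than in P-I (3.28 on the log2 scale, SE 0.37, adjusted p = 0.000322) and 13.3-fold higher in P-IV than in P-I (3.75, adjusted p = 3.3e-05). P-IV and P-III differed by 0.47 (95% interval -0.32 to 1.27), which did not pass. DC-Xs differed from P-IV by -0.04 (95% interval -0.83 to 0.75). The difference of Pltp between treated cell types was of 3.49 between DC-Xs and GM-CSF cDC2s (adjusted p = 2.48e-05) and of 3.53 between P-IV and GM-CSF cDC2s (adjusted p = 1.93e-05). Against GM-CSF cDC1s, P-IV was higher by 7.23 (adjusted p = 2.64e-08).

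Pltp also differed between the cDC subsets and with GM-CSF. It was lower in cDC1s than in cDC2s by -5.09 in control mice (adjusted p = 6.08e-07) and by -3.70 in treated mice (adjusted p = 1.23e-05). GM-CSF cDC1s were higher than control cDC1s by 2.45 (SE 0.37, adjusted p = 0.00152), and both treated libraries were above both control libraries. This was not called in a fit to these 4 libraries alone (adjusted p = 0.238), a fit that called 0 of all 11335 genes, of which 1678 were called in the fit to all libraries. In cDC2s the difference with GM-CSF was 1.05 (adjusted p = 0.112), and both treated libraries lay above both control libraries. The difference between these effects, 1.39 (95% interval 0.27 to 2.52), did not pass (adjusted p = 0.108), but passed without control cDC1s replicate 1 (1.77, adjusted p = 0.0355).

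Of some genes with far more RNA in DC-Xs and P-IV than in cDC1s, not all particular to these cells, some were also called higher in GM-CSF cDC1s and others were not. Mgl2 went from 0 and 0.134 FPKM in control cDC1s to 3.74 and 6.13 in GM-CSF cDC1s (2.45 on the log2 scale, adjusted p = 0.000908), and Clec10a, a related lectin, from 0.0259 and 0.134 to 3.79 and 3.56 (2.11, adjusted p = 0.000827). As a percentage of the DC-X mean, control and GM-CSF cDC1s held 0.0368% and 0.613% for Pltp, 0.0160% and 1.18% for Mgl2, 0.0853% and 3.92% for Clec10a and 0.932% and 2.32% for Csf1r. For Lpl, which was not called between them, they held 0.208% and 0.513%, for Cd209a 0.455% and 0.508%, and for Ccr2, which was not called either, 8.91% and 7.48%. The Lpl means were 0.109 and 0.269 FPKM, a low level at which a change of FPKM + 1 looks smaller than it is. About 2 fragments lay behind the Pltp value of control cDC1s replicate 2, and the call held without that library. The part of these genes in the Pltp result was not tested. Exons of Pltp overlap those of Ctsa, a lysosomal protease gene on the opposite strand, which lay between 43.3 and 509 FPKM, and no strand setting is given in the sources used here. The mean of Ctsa was 378 FPKM in P-IV, 432 in P-I and 469 in P-III, where Pltp was lowest in P-I. It was 45.5 and 50.8 FPKM in control and GM-CSF cDC1s and 230 and 219 in control and GM-CSF cDC2s. Ctsa was thus lower in cDC1s than in cDC2s with and without GM-CSF, the order that Pltp had too. Its mean of 425 FPKM for DC-Xs stood above that for GM-CSF cDC2s, again the order of Pltp. The part of Ctsa reads in the Pltp values was not tested.

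Apoe, the apolipoprotein that binds lipoproteins to their receptors, ran against the other lipid transport genes. It was at 218 and 216 FPKM in control cDC1s, 235 and 210 in control cDC2s, 103 and 102 in GM-CSF cDC1s and 113 and 91.6 in GM-CSF cDC2s. It was at 49.4 and 35.4 in P-III, 9.31 and 34.8 in P-I, 9.92 and 11.4 in P-IV and 6.38 and 10.2 in DC-Xs. The control cDC libraries lay above the GM-CSF cDC libraries, which lay above all others. Apoe was 12.4-fold lower in DC-Xs than in GM-CSF cDC1s (-3.51 on the log2 scale, SE 0.43, adjusted p = 5.99e-05) and 12.3-fold lower than in GM-CSF cDC2s (-3.50, adjusted p = 8.32e-05). P-IV was lower than these groups by -3.15 (adjusted p = 0.000142) and -3.14 (adjusted p = 0.000172).

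With GM-CSF, the mean of Apoe was 2.12-fold lower in cDC1s (-1.07, adjusted p = 0.08) and 2.17-fold lower in cDC2s (-1.12, adjusted p = 0.147), neither of which passed. A test of the average effect over both subsets, added after the values were seen, gave -1.10 (SE 0.30, adjusted p = 0.0228), with all 4 treated libraries below all 4 control libraries. This call was lost after a correction for transcript length (-0.86, adjusted p = 0.0578), with every expressed gene tested (adjusted p = 0.0534), with library weights (adjusted p = 0.331) and without any of 4 of the 8 libraries, with an adjusted p of 0.051 to 0.0689. Those libraries were control cDC1s replicate 2, control cDC2s replicate 1, GM-CSF cDC1s replicate 2 and GM-CSF cDC2s replicate 2. The effect of GM-CSF correlated with transcript length at a Spearman's rho of 0.458 in cDC1s, -0.0856 in cDC2s and 0.282 over both (11288 genes, not independent of each other), and the Apoe transcript is short, at 1314 bases.

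Among CD115-high cells and DC-Xs, Apoe was lower in DC-Xs than in P-III by -2.24 (adjusted p = 0.0108). That call was lost in a fit to these groups alone (adjusted p = 0.0518) and without DC-Xs replicate 1 (adjusted p = 0.12), P-III replicate 1 (0.12) or P-III replicate 2 (0.0648). P-IV was 3.97-fold below P-III (-1.88, 95% interval -2.80 to -0.95), which did not pass (adjusted p = 0.0984) but did with library weights (adjusted p = 0.000698) and in a fit to the libraries of these groups alone (adjusted p = 0.0208). The replicates of P-I stood 9.31 against 34.8 FPKM apart for Apoe, and neutrophil markers summed to 56.8 and 118 FPKM in the same libraries. Without P-I replicate 2 Apoe was called higher in P-III than in P-I (2.05, adjusted p = 0.00451), and without P-I replicate 1 it was called lower in P-IV than in P-I (-1.62, adjusted p = 0.00541).

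Lpl, the lipase that frees fatty acids from lipoprotein triglycerides, separated DC-Xs and CD115-high cells from cDCs. The P-I libraries held 66.9 and 65.4 FPKM, those of P-III 50.1 and 59.9, those of DC-Xs 45.8 and 59.0 and those of P-IV 36.9 and 53.1. In cDC2s it was at 0.932 and 0.558 without and 1.00 and 0.350 with GM-CSF, and in cDC1s it was listed at 0 and was at 0.218 without and at 0.142 and 0.395 with GM-CSF. The lowest library of DC-Xs and CD115-high cells, at 36.9 FPKM, was thus far above the highest cDC library, at 1.00, and P-I was above the other 3 high groups, which overlapped. Lpl was higher in DC-Xs than in GM-CSF cDC1s by 5.39 on the log2 scale (SE 0.27, adjusted p = 2.75e-08) and than in GM-CSF cDC2s by 5.01 (adjusted p = 1.21e-07). P-IV was higher than these by 5.17 (adjusted p = 3.18e-08) and 4.78 (adjusted p = 1.46e-07). The difference of Lpl with GM-CSF was 0.19 in cDC1s (95% interval -0.39 to 0.77) and -0.08 in cDC2s (95% interval -0.66 to 0.50), and neither passed. Lpl and Pltp therefore parted in P-I, which had the highest Lpl and the lowest Pltp of P-I, P-III, P-IV and DC-Xs.

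The receptor genes differed in level. Nr1h2, for LXR beta, was at 40.7 to 132 FPKM over the 16 libraries, and Nr1h3, for LXR alpha, at 0.718 to 6.46. Nr1h2 was at 120 and 132 FPKM in GM-CSF cDC1s, 105 and 82.5 in DC-Xs, 88.6 and 90.8 in GM-CSF cDC2s and 82.7 and 40.7 in control cDC1s. It was at 51.4 and 61.9 in control cDC2s, 62.2 and 59.9 in P-I, 71.5 and 65.6 in P-III and 65.3 and 68.4 in P-IV. All 4 treated cDC libraries were above all 4 control cDC libraries. GM-CSF raised Nr1h2 in cDC1s by 1.10 (SE 0.26, adjusted p = 0.011), while the difference in cDC2s, 0.66 (adjusted p = 0.162), did not pass. The average over both subsets was 0.88 (adjusted p = 0.00656), under the 2-fold rule. The call in cDC1s failed without replicate 2 of control cDC1s (0.60, adjusted p = 0.0504), without replicate 2 of GM-CSF cDC1s (1.03, adjusted p = 0.0668), with library weights (adjusted p = 0.056), in the fit to these 4 libraries alone (adjusted p = 0.251) and, by its size, with median-of-ratios scaling (0.93). P-IV was below GM-CSF cDC1s by -0.90 (adjusted p = 0.026), also under the 2-fold rule.

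Nr1h3 was at 5.35 and 6.46 FPKM in P-III, 3.46 and 4.76 in P-I, 2.52 and 2.23 in P-IV and 2.42 and 4.56 in DC-Xs. In cDC1s it was at 0.889 and 0.819 without and 5.62 and 0.718 with GM-CSF, and in cDC2s at 2.29 and 2.16 without and 5.01 and 1.59 with GM-CSF. The treated cDC groups therefore held both the highest and the lowest cDC values, and replicate 1 was the high one in each. The 1.03 by which P-IV lay below P-III (-1.03, 95% interval -2.17 to 0.11) did not pass, but did with library weights (adjusted p = 0.004) and in the fit to these groups alone (adjusted p = 0.0301). Without GM-CSF cDC1s replicate 2, Nr1h3 was called higher with GM-CSF in cDC1s (1.84, adjusted p = 0.0285). A noncoding transcript, Gm13783, overlaps Nr1h3 on the same strand, so reads of these genes may not have been separable.

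Mylip was at 18.7 and 7.17 FPKM in control cDC2s, and at 10.3 and 10.7 in the P-III libraries, 10.7 and 7.95 in those of P-IV, 6.84 and 6.82 in those of P-I and 5.48 and 8.32 in those of DC-Xs. It was at 9.30 and 1.93 in GM-CSF cDC2s, 7.59 and 3.29 in GM-CSF cDC1s and 5.04 and 3.87 in control cDC1s. All groups overlapped their neighbours in the order, and no comparison called Mylip. Without GM-CSF cDC2s replicate 1 it was called lower with GM-CSF in cDC2s (-2.12, adjusted p = 0.037) and higher in P-IV than in GM-CSF cDC2s (adjusted p = 0.03), and without control cDC2s replicate 2 it was called lower in control cDC1s than in control cDC2s (-1.86, adjusted p = 0.0317).

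Replicate 1 of the cDC groups also carried more RNA of macrophage markers. The summed level of 12 markers of red pulp and marginal zone macrophages was 162 and 50.9 FPKM in control cDC1s, 378 and 153 in control cDC2s, 114 and 49.7 in GM-CSF cDC1s and 187 and 103 in GM-CSF cDC2s, replicate 1 first. The sum was higher in replicate 1 in all 4 groups, as were 9, 11, 11 and 11 of the 12 markers, group by group. Nr1h3, Mylip and Apoe were also higher in replicate 1 in all 4 groups, Apoe by only 1.01-fold and 1.02-fold in control and GM-CSF cDC1s. Abca1 was higher in replicate 1 in 2 of 4 groups, the cDC2s, as were Pltp and Lpl in 2 of 4 groups and Abcg1 and Nr1h2 in 1 of 4. The share of all genes higher in replicate 1 in all 4 groups is not given here. Of the defining markers, Siglec1, Cd209b and Cd163 were listed at 0 in control cDC1s replicate 1, whereas Spic, the transcription factor of red pulp macrophages, was at 19.2 and 11.2 FPKM in control cDC1s. Across the 8 cDC libraries the sum correlated with Mylip at r = 0.80, Abca1 at 0.74, Lpl at 0.51, Pltp at 0.50, Nr1h3 at 0.48, Apoe at 0.36, Nr1h2 at -0.22 and Abcg1 at -0.78, values that share libraries and groups and are given as a description. Apoe was at 218 and 216 FPKM in the control cDC1 libraries, where the sums were 162 and 50.9. The part of these markers in the values of Nr1h3, Mylip, Abca1 and Apoe was not tested. In DC-Xs the marker sum was 171 and 182 FPKM and in P-IV 180 and 177, where Apoe was lowest. The markers did not move together in these groups. Against GM-CSF cDC2s, 3 of the 12 were called higher and 2 lower in DC-Xs (6.78% and 7.96% of all genes). In P-IV 3 were likewise called higher and 2 lower (7.98% and 8.45%). Whether the sum reflects macrophage RNA in DC-Xs and P-IV was not tested.

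**Figure D2:**
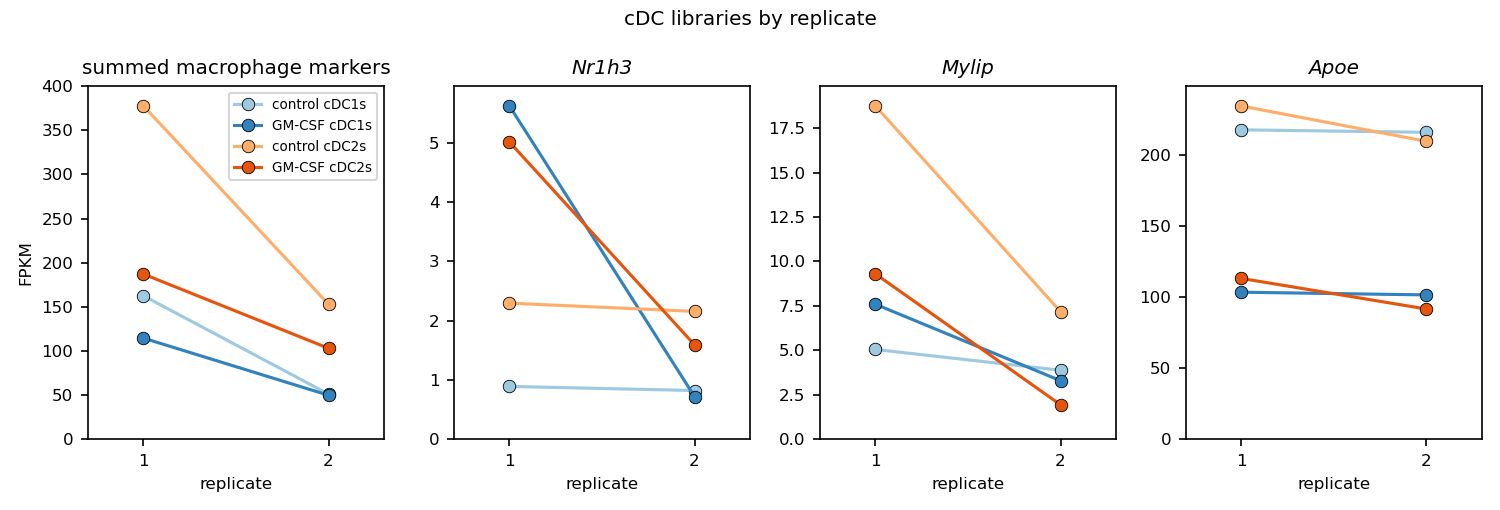
FPKM in replicate 1 and replicate 2 of the 4 cDC groups, for the sum of 12 macrophage markers and for Nr1h3, Mylip and Apoe. The members plotted are those higher in replicate 1 in all 4 groups, which the other members were not. Each line joins the 2 libraries of a group and does not stand for a time course or a pairing between groups. Replicate 1 is the higher one in every line, by 7.82-fold for Nr1h3 in GM-CSF cDC1s and by 1.01-fold for Apoe in control cDC1s.

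The comparisons were then read across the 8 members, in each case beside the share of all 11335 genes called by the same rule. To see how GM-CSF acts on the cDCs, treated cells were set against control cells. In cDC1s 2 of 8 members were higher with GM-CSF, Pltp and Nr1h2, and none was lower, where 10.4% of all genes were higher and 4.41% lower. In cDC2s 0 of 8 were called by limma (4 at an unadjusted p under 0.05), where 5.28% of all genes were. The difference of effects between the subsets called 0 of 8 (1 at an unadjusted p under 0.05) and 6.84% of all genes. The cDC1 and cDC2 comparisons share no libraries, but they share the pooled spread. Same-numbered libraries of GM-CSF cDC1s and GM-CSF cDC2s also deviated together (r = 0.67), so the comparisons are not independent of each other. The average over both subsets, added after the values were seen, called Pltp higher (1.75, adjusted p = 0.000996) and Apoe lower, where 4.31% of all genes were higher and 1.43% lower. The median log2 fold change of the 8 members was 0.18 in cDC1s and -0.10 in cDC2s, beside 0.14 and 0.02 over all genes.

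Between the subsets, 1 of 8 members differed in control mice, Pltp, which was lower in cDC1s, where 20.6% of all genes were lower and 11.2% higher. In treated mice the same gene, Pltp, was again the 1 member lower in cDC1s, where 8.80% of all genes were lower and 6.01% higher. The remaining 7 members were not called between cDC1s and cDC2s in either state.

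DC-Xs and P-IV were then set against the cDCs of treated mice. In DC-Xs 3 of 8 members were higher than in GM-CSF cDC1s (Pltp, Lpl and Abca1) and 1 was lower (Apoe), where 8.95% of all genes were higher and 7.49% lower. Against GM-CSF cDC2s 4 were higher (Lpl, Pltp, Abca1 and Abcg1) and 1 lower (Apoe), beside 6.78% and 7.96% of all genes. In P-IV the same 4 were higher and Apoe was lower than in GM-CSF cDC1s (8.95% higher and 6.49% lower over all genes) and in GM-CSF cDC2s (7.98% and 8.45%). The median of the 8 members lay between 0.62 and 0.98 in these 4 comparisons, against -0.15 to -0.0040 over all genes. The members were chosen with earlier results of these data known. Abca1 and Lpl also passed the filter only through groups where they were high. These medians and counts are therefore a description and not independent support. The 4 comparisons share the libraries of GM-CSF cDCs, DC-Xs or P-IV, and DC-Xs hold P-IV cells, so they are not independent of each other.

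Within the CD115-high cells, monocytes (P-I) were set against the MHC class II-positive populations. Pltp was the 1 member higher in P-III (0.979% of all genes higher, 2.53% lower) and the 1 member higher in P-IV (2.43% and 4.86%). Between P-IV and P-III 0 of 8 members were called by limma (1 at an unadjusted p under 0.05, Apoe), beside 0.591% of all genes. DC-Xs had 2 of 8 members lower than P-III, Abcg1 and Apoe, where 3.09% of all genes were lower and 0.909% higher. DC-Xs and P-IV differed in 0 of 8 by limma (1 at an unadjusted p under 0.05, Abcg1), beside 1.96% of all genes.

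**Figure D3:**
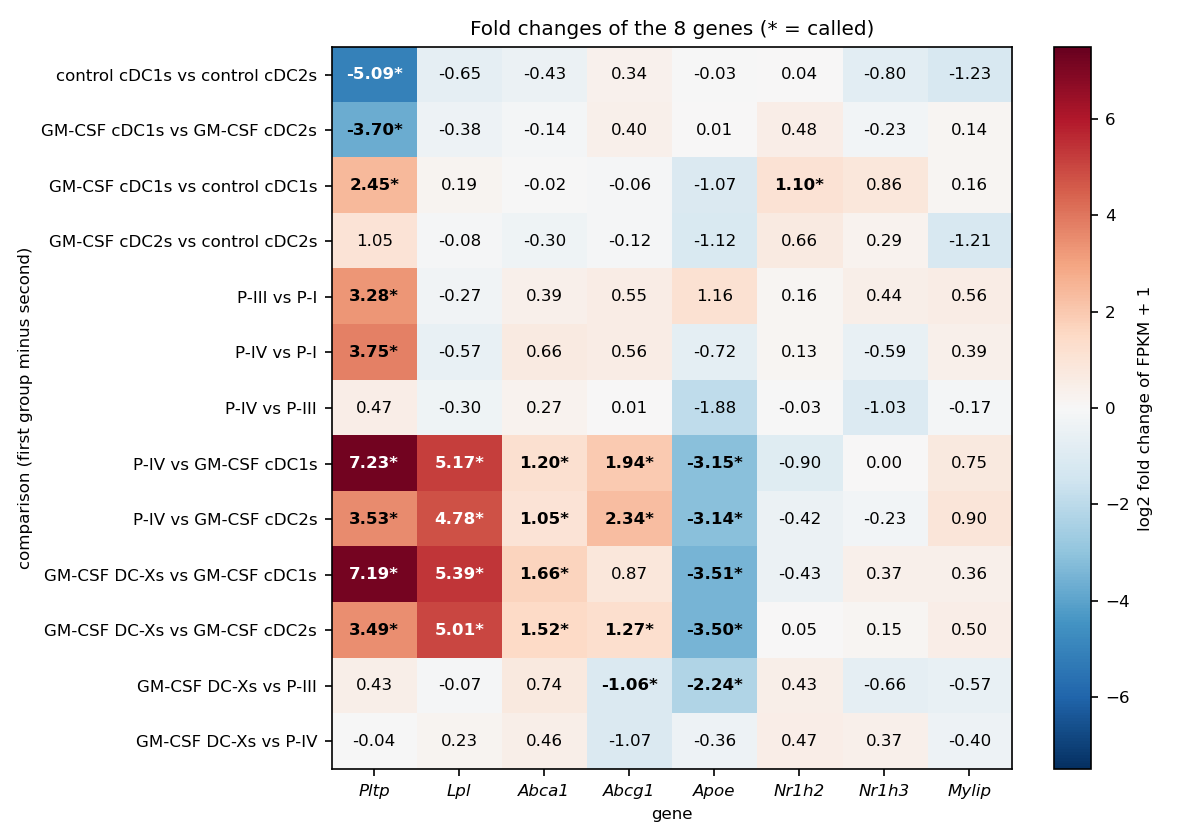
Log2 fold change (of FPKM + 1, limma fit to all 16 libraries) of the 8 genes, in columns, in 13 comparisons, in rows, as the first group minus the second, by colour and number. An asterisk and bold type mark a call (adjusted p under 0.05 and at least 2-fold). Calls gather in the 4 comparisons of P-IV or DC-Xs with GM-CSF cDCs, where Pltp, Lpl and Abca1 are higher in all 4 and Apoe is lower in all 4.

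The members also varied together in part. Over the 16 libraries, which share groups and so are not independent, Lpl correlated with Abcg1 at r = 0.89, with Pltp at 0.80, with Abca1 at 0.78 and with Apoe at -0.88, and Pltp with Abca1 at 0.81. Nr1h2 correlated with none of the other members beyond -0.34. The genes whose pattern was most like a member's over the 16 libraries were Lmo4 for Abca1 (r = 0.94), Gprin3 for Abcg1 (0.96), Ccpg1 for Pltp (0.96), Cd38 for Apoe (0.93) and Capg for Lpl (0.99), followed by Irak3 and Pld1 (both 0.99). For the other members the nearest genes were Selo for Nr1h2 (0.95), Klf13 for Nr1h3 (0.85) and Tfcp2 for Mylip (0.84).

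Other genes of the same pathways were read by lists, by counts of calls and with at most 3 genes named for each comparison. Of 17 RXR genes and further LXR targets, 12 were tested. In GM-CSF cDC1s 2 of the 12 were higher than in control cDC1s, beside 10.4% of all genes: Srebf1, the regulator of fatty acid synthesis, by 1.71 (adjusted p = 0.00859), and Rnf145, a ubiquitin ligase gene, by 1.65 (adjusted p = 0.00152). In GM-CSF cDC2s 1 of 12 was higher, Lpcat3, which remodels membrane phospholipids (1.31, adjusted p = 0.0115), where 5.28% of all genes were called in either direction. Rxra, an LXR partner, was higher in DC-Xs than in GM-CSF cDC2s by 2.51 (adjusted p = 0.00187), as was Smpdl3a by 2.07 (adjusted p = 0.00082). In that comparison 2 of 12 were higher and 2 lower, Cd5l among the lower (-1.65), beside 6.78% and 7.96% of all genes. P-IV had 2 of 12 higher and 1 lower, Cd5l (-1.30), against GM-CSF cDC2s (7.98% and 8.45% of all genes). Against GM-CSF cDC1s P-IV had 0 higher and 1 lower, Fasn (-1.16), beside 8.95% and 6.49%. Against P-I it had 0 higher and 2 lower, Apoc2 (-2.57) and Smpdl3a (-1.70), beside 2.43% and 4.86%. Against GM-CSF cDC1s, DC-Xs had 0 of the 12 higher and 2 lower (8.95% and 7.49% of all genes, with a list median of 0.13 beside -0.06 over all genes), Scd1 (-1.12) and Scd2 (-1.01), both fatty acid desaturase genes and both lost without GM-CSF cDC1s replicate 2. None of these 12 genes, an RXR gene among them, was thus called in the direction of Pltp and Abca1 in that comparison. With 8.95% of all genes called that way, a count of 0 among 12 cannot tell the list from other genes. Of 5 oxysterol enzyme genes 1 passed the filter, Cyp27a1, the sterol 27-hydroxylase, which was not called between treated and control cDCs, or between DC-Xs or P-IV and GM-CSF cDCs.

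Receptors that take up lipoproteins and modified lipids were measured as the counterpart of efflux. In DC-Xs 5 of 7 tested were higher than in GM-CSF cDC2s and 0 lower (beside 6.78% and 7.96% of all genes), with a median of 1.54 beside -0.15 over all genes, led by Cd36, a fatty acid and oxidized lipid receptor, by 5.10 (adjusted p = 9.22e-07). The DC-X libraries held 55.9 and 86.1 FPKM of Cd36, those of P-IV 55.6 and 72.0, those of P-III 32.2 and 47.3 and those of P-I 4.07 and 2.22. It was at 120 and 139 in GM-CSF cDC1s and at 1.74 and 0.537 in GM-CSF cDC2s, so it was high in cDC1s as well. Lrp1, an endocytic receptor that binds apolipoprotein E, was at 14.7 and 15.6 FPKM in the P-IV libraries and 20.6 and 14.1 in those of DC-Xs, and at most 1.71 in any cDC library. It was higher in DC-Xs by 3.64 against GM-CSF cDC1s (adjusted p = 8.75e-06) and by 3.27 against GM-CSF cDC2s (adjusted p = 3.05e-05). Against GM-CSF cDC1s 2 of 7 were higher in DC-Xs and 3 of 7 in P-IV, with 0 lower. Over all genes 8.95% were higher in DC-Xs and 8.95% in P-IV, and 7.49% and 6.49% were lower. Against P-I, P-IV had 1 of 7 higher, Cd36 (3.99), and 2 lower, Trem2 (-3.19) and Msr1 (-2.95), beside 2.43% and 4.86% of all genes. P-III had 1 higher than P-I, Cd36 (3.31), and 1 lower, Trem2 (-2.33), beside 0.979% and 2.53%. The list was chosen with earlier results of these data known, so its counts are a description. Scarb1, whose product binds high-density lipoprotein, was the 1 of 7 higher with GM-CSF in cDC1s (1.16, adjusted p = 0.0161), beside 10.4% of all genes. Of the differences with GM-CSF named from these lists, none was called in a fit to the 4 libraries compared alone, and those of Srebf1, Scarb1 and Lipa in cDC1s were also lost without control cDC1s replicate 2, and that of Lpcat3 without replicate 1 of control cDC2s or replicate 2 of GM-CSF cDC2s.

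Pparg, the gene of a lipid-sensing nuclear receptor, was at 24.4 and 27.6 FPKM in the P-III libraries, 21.5 and 31.8 in those of DC-Xs, 21.8 and 23.6 in those of P-IV and 10.0 and 12.8 in those of P-I, and at 0.737 to 6.15 in cDCs. No DC-X or CD115-high library overlapped the cDC libraries. Pparg was higher in DC-Xs than in GM-CSF cDC1s by 3.02 (adjusted p = 2.4e-06) and than in GM-CSF cDC2s by 3.97 (adjusted p = 5.26e-07), within a list of 7 tested genes of which 4 and 3 were higher and 1 and 0 lower (medians of 1.20 and 0.89, beside -0.06 and -0.15 over all genes). Over all genes 8.95% and 6.78% were higher and 7.49% and 7.96% lower. Plin2, which coats lipid droplets, was at 147 and 286 FPKM in DC-Xs but also at 211 and 287 in GM-CSF cDC1s, and was at 20.1 and 27.7 in GM-CSF cDC2s. Of 11 cholesterol synthesis genes under SREBP2, 1 was higher with GM-CSF in cDC1s (10.4% of all genes), Srebf2 itself (1.32, adjusted p = 0.00322), and 0 in cDC2s. Of 8 lysosomal and intracellular cholesterol genes 1 was higher with GM-CSF in cDC1s (10.4% of all genes), Lipa, the lysosomal acid lipase (1.03), and 0 in cDC2s. Of 7 partners and regulators of lipoprotein lipase 3 were tested, and none was called between treated and control cDCs, or between DC-Xs or P-IV and GM-CSF cDCs.

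**Figure D4:**
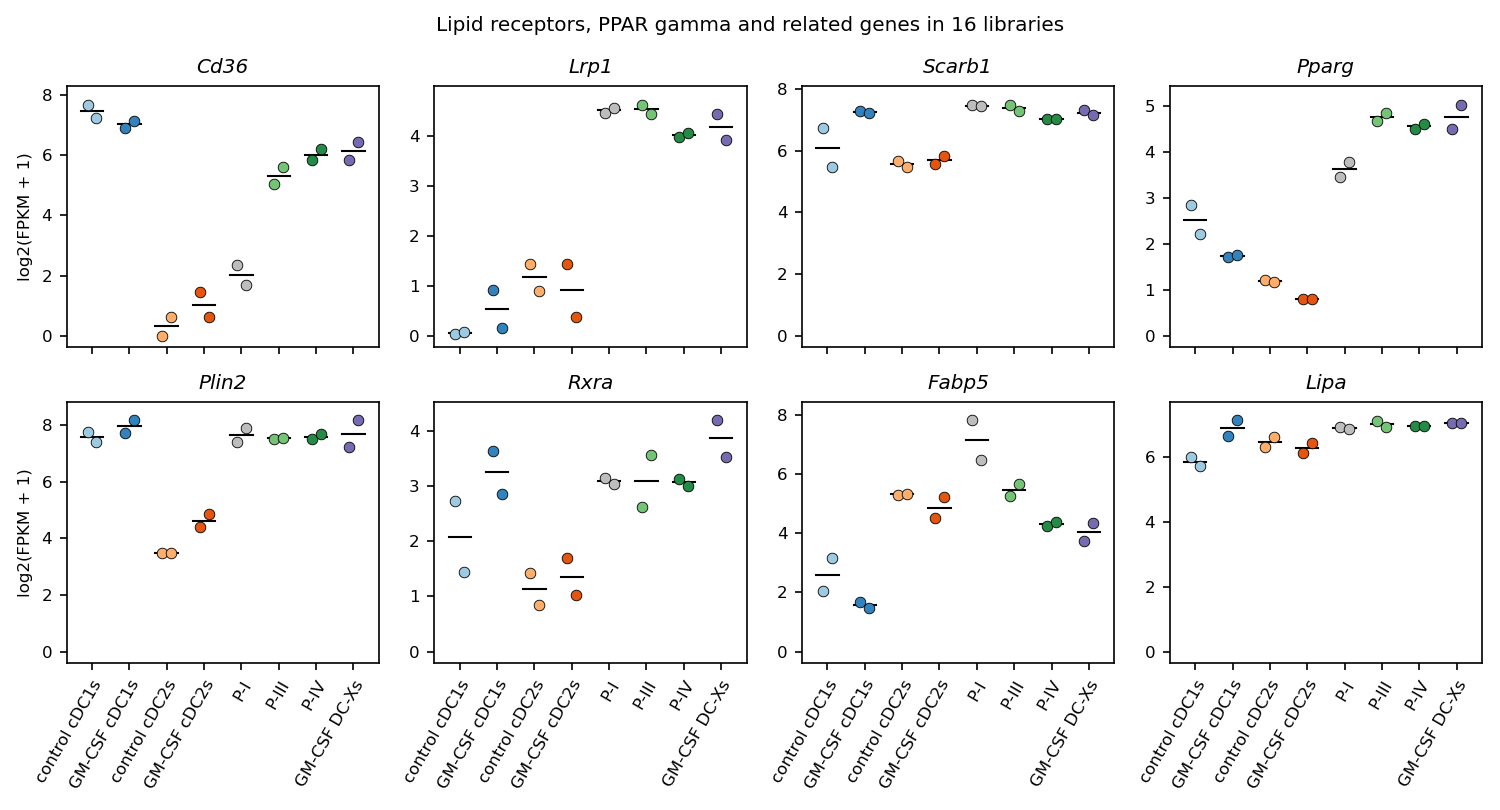
Level, as log2(FPKM + 1), of 8 genes of lipid uptake, sensing, storage and breakdown in the 16 libraries. Points are libraries, bars are group means (n = 2), and each panel has its own vertical axis. Pparg and Lrp1 are higher in all DC-X and CD115-high libraries than in all cDC libraries, while Cd36 and Plin2 are also high in cDC1s.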

How the data were processed

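RNA from sorted spleen cells of control and GM-CSF-treated mice was made into libraries by the authors with a SMARTer kit for low input and sequenced on a NovaSeq instrument. Per the labels, bcl2fastq 1.8.4, HISAT2 2.1.0 and StringTie 1.3.4d were used with build mm10. The deposited values are FPKM by the authors, for 24532 genes in each of 16 libraries, without counts. This scaling does not remove differences between libraries in the loss of short or long transcripts. Groups came from the sample labels.

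log2(FPKM + 1) was tested with limma 3.58.1 (R 4.3.3), with a variance trend, 1 mean per group, all 16 libraries and 8 residual degrees of freedom. Genes with FPKM of at least 1 in 2 libraries were tested. A total of 14 comparisons was planned, and the average over both cDC subsets was added after the values were seen. The members and gene lists were chosen with earlier results of these data known. All members were named, at most 3 called genes per list and comparison by size of change, and the genes nearest in pattern by Pearson's r. Clec10a, Mgl2, Ctsa, Lrp8 and the genes plotted beside the members were chosen after the values were seen. A few genes of the lists are not reported here and were left out of the list counts. The fit was tested on simulated data. Gene positions and lengths came from GENCODE M21 (GRCm38), promoter windows from RefSeq (GRCm38.p6). Depth was recovered from the smallest steps of FPKM values. Alternatives were the pseudocount, filter, scaling, library weights, samples fitted, transcript length, replicate block and leaving out libraries. Summaries and plots used Python 3.11.15 with pandas 2.3.3, matplotlib 3.10.9, numpy 2.4.6 and scipy 1.17.1.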

Additional observations from a re-analysis of the deposited data

Results flagged for a closer look

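The difference with GM-CSF itself differed between cDC1s and cDC2s, by a limma test of the difference of the effects, for none of the 8 members and for 3 genes of the related lists. Rnf145 was higher with GM-CSF by 1.65 in cDC1s and differed by 0.10 in cDC2s (difference of effects 1.55, adjusted p = 0.0274). For Lipa the difference of effects was 1.20 (adjusted p = 0.0293). Lrp8, a receptor for apolipoprotein E, was lower with GM-CSF in cDC2s by -1.59, at 5.37 and 6.48 FPKM without and 1.18 and 1.41 with it, and was at 0.151 FPKM or less in all cDC1 libraries. Its difference of effects (1.58, adjusted p = 0.00725) therefore restates the change in cDC2s, since it had no level in cDC1s from which to fall. All 3 were lost with library weights (adjusted p of 0.114 to 0.187) and in the fit to these 8 libraries alone (0.234 to 0.268), and Rnf145 and Lipa were each lost without any of 4 single libraries.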

How the results depend on the processing

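The 8 members gave 120 fold changes over 15 comparisons, and none of them changed direction past the threshold under an alternative: 1677 values kept their side of it, 30 (6 of the fold changes) fell short of a call and 22 (14 of the fold changes) gained one. With GM-CSF in cDC1s the members called went from 2 to 1 with median-of-ratios scaling or library weights, to 0 in the fit to these groups alone, and to between 1 and 2 without 1 library. With GM-CSF in cDC2s the count of 0 reached at most 1 without 1 library, as did that of the difference of effects. Between control cDC1s and control cDC2s it went from 1 to 2 with a pseudocount of 0.1, which added Lpl (adjusted p = 0.00687), and to between 1 and 2 without 1 library. Between P-III and P-I it was 2 with library weights and 1 to 2 without 1 library, and between P-IV and P-I 1 to 2. Between P-IV and P-III library weights and the fit to the groups alone called 2, Apoe and Nr1h3. Between DC-Xs and P-III the 2 calls became 1 with a pseudocount of 0.1, no filter, quantile normalization or median-of-ratios scaling, 0 in the fit to the groups alone, and 0 to 1 without 1 library. Between DC-Xs and P-IV the filter at 5 FPKM and library weights called 1, Abcg1. Over both cDC subsets together the 2 calls became 1 with no filter, library weights or the length correction, and 1 to 3 without 1 library. The causes were not tested. The counts for P-IV or DC-Xs against GM-CSF cDCs kept within 1.5 times of their value, though the filter at 5 FPKM removed Abca1 from the test.

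Replicate numbers are shared between groups, but same-numbered libraries deviated together at r of -0.20 to 0.67 over 28 pairs of groups, over 0.1 in 10, of which 8 were among the 10 pairs of cDC and DC-X groups, up to 0.67 between GM-CSF cDC1s and GM-CSF cDC2s. What the numbers share across groups is not given in the sources used here, and they were not taken to pair the mice. The sample descriptions also end in a number of their own. It was lowest in replicate 1 of the cDC and DC-X groups, higher in their replicate 2, and highest in all P-I, P-III and P-IV libraries. Comparisons of CD115-high cells with cDCs or DC-Xs therefore cross these ranges of numbers, whose meaning is not given. With a replicate block the members called were 2 between control cDC1s and control cDC2s, where Mylip was added (adjusted p = 0.0436), and 1 between DC-Xs and P-IV, where Abcg1 was added. With the block and the length correction they were 1 between DC-Xs and P-IV and 1 over both cDC subsets. With 2 libraries per group a leave-one-out fit rests on a single library that is assumed to vary like the other groups. The levels nearest the smallest the depth can show were those of Pltp in control cDC1s replicate 2 (about 2 fragments) and of Abca1 in replicate 2 of both cDC1 groups and of GM-CSF cDC2s (about 8 to 13 fragments).

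Across all genes, the fit to the groups compared alone called 0 for GM-CSF in cDC1s and in cDC2s (1678 and 598 with all libraries), 2 for the difference of effects (775), 263 over both subsets (650), 3 between DC-Xs and P-IV (222), 107 between DC-Xs and P-III (453), 145 between P-IV and P-III (67), and 1531 and 1046 between the cDC subsets (3599 and 1679). Library weights called 454, 322 and 4 for the first 3, and the length correction 954 for the first. Quantile normalization shifted the all-gene median between control cDC1s and control cDC2s from -0.26 to 0.02 and that of GM-CSF in cDC1s from 0.14 to -0.02, and the calls of Pltp there were kept.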
